A study of Mus musculus with 6 samples.

Results

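The genes described here are 41 genes that dividing cells switch on: 21 genes of S phase, 19 genes of G2 and mitosis, and Stmn1, which encodes a protein that destabilises microtubules. They were followed in regenerating mouse skeletal muscle among 32286 measured genes. The genes were chosen by their own counts and by shares of cycling cells, with the contrast between the groups already known in 3 cell types, in which they were lower (endothelial-like cells) or higher (macrophage/monocyte-like and myogenic-like cells). For those 3 cell types the comparison of the groups is therefore a description with no test. Counts of genes called in them, or in their clusters, only restate the choice. Tests are given for the cell types that the choice did not use.

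The study measured single-cell RNA from quadriceps muscle injured by cardiotoxin (CTX), a snake-venom toxin that kills muscle fibres. The 6 libraries, 3 called CLL and 3 called SHAM, hold cells of injured muscle taken 5 days after CTX. CLL mice received clodronate liposomes, which are taken up by phagocytes and kill them, by intravenous injection 1 day before and 2 days after the injury. SHAM mice received PBS liposomes at the same times. All mice carried Cdh5-CreERT2:R26R-tdTomato, in which a tamoxifen-inducible Cre driven by an endothelial promoter turns on a red label, so both groups share this genotype. The labels used here state no dose, age or tamoxifen time, and there was no uninjured muscle and no group without liposomes, so every value below is relative to injured muscle with PBS liposomes.

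A cell that enters the cycle first licenses its replication origins and makes deoxynucleotides, under the control of E2F transcription factors. Later it builds the spindle, condenses its chromosomes and degrades its cyclins, with genes that are silenced in resting cells by the DREAM complex through cell cycle homology regions. In injured muscle, satellite cells, infiltrating and resident macrophages, fibro-adipogenic progenitors and endothelial cells are all known to divide in the first week.

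The promoter sequences of 6 of the genes are shown because they carry the motifs by which S phase and mitosis genes are usually told apart. These 6 sequences were picked for their matches and do not represent either set. They are RefSeq sequences of build GRCm38.p6, 250 bases long and ending just before the gene's start, in the direction of transcription. Mcm5 (chr8:75109259-75109508, plus strand) and Mcm6 (chr1:128359706-128359955, minus strand) encode subunits of the replicative helicase. Cdk1 (chr10:69352913-69353162, minus strand) encodes the mitotic kinase and Ccnb2 (chr9:70421555-70421804, minus strand) a cyclin that activates it. Mki67 (chr7:135716380-135716629, minus strand) encodes the coat protein of mitotic chromosomes, and Top2a (chr11:99024190-99024439, minus strand) the topoisomerase that untangles them. Capitals mark the E2F core (TTGGCGC or TTCGCGC), the cell cycle homology region (TTTGAA) and the CCAAT box (CCAAT), each on either strand. E2F cores on opposite strands can overlap, and then the run of capitals is longer.
Mcm5: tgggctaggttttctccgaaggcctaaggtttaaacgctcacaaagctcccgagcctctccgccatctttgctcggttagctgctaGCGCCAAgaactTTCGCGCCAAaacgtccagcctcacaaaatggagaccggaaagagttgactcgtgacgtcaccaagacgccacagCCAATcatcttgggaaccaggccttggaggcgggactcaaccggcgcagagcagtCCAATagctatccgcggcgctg
Mcm6: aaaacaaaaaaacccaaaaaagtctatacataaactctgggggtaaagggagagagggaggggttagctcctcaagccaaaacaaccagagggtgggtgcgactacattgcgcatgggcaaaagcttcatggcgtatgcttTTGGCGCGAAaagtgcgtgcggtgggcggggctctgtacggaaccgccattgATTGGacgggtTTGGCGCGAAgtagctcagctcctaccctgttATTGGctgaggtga
Cdk1: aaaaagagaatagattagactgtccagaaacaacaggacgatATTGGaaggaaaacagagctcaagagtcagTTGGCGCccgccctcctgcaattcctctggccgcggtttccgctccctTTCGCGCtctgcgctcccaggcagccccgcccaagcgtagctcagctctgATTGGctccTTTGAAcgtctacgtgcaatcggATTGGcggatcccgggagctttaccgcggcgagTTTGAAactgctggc
Mki67: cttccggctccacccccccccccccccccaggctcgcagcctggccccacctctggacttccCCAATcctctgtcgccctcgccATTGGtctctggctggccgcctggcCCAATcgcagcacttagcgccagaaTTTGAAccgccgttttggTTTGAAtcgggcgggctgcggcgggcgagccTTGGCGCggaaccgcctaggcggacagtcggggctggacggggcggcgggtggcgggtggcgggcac
Ccnb2: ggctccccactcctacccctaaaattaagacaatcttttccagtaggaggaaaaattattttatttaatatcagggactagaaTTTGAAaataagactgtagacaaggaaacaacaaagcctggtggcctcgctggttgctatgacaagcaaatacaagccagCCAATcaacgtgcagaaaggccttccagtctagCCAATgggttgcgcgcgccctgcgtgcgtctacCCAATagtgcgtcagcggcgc
Top2a: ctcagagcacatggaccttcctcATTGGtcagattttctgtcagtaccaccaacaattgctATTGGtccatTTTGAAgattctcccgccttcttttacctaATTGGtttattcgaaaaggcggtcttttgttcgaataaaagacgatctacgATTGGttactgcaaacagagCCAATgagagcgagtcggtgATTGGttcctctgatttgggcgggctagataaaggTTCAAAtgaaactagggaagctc

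Upstream of the start, Mcm6 held 4 matches to the E2F core, Mcm5 held 3, and neither held a cell cycle homology region. Top2a, Mki67 and Cdk1 each held 2 cell cycle homology regions and Ccnb2 held 1. Cdk1 and Mki67 also carried E2F cores, 2 in Cdk1 and 1 in Mki67. RefSeq promoters were matched for 33 of the 41 genes, 17 of S phase and 16 of mitosis, and were read from 250 bases before to 50 bases after the start. A cell cycle homology region stood in 12 of the 16 mitosis promoters (75.0%) and in 1 of the 17 S phase promoters (5.88%), beside 18.1% of all 27025 promoters of the same length. The E2F core stood in 6 of 17 S phase promoters (35.3%) and 3 of 16 mitosis promoters (18.75%), beside 3.98% of all promoters. CCAAT boxes stood in 15 of 16 mitosis promoters (93.75%), 10 of 17 S phase promoters (58.8%) and 37.9% of all promoters. Without the 50 bases after the start, fewer genes matched. The E2F core was then left only in Mcm5, Mcm6 and Hells of S phase and in Cdk1, Ccnb1 and Mki67 of mitosis. Upstream it was thus not particular to S phase genes. The cell cycle homology region was left in Mcm2 of S phase and in Cdk1, Ccnb2, Top2a, Mki67, Ube2c, Kif11 and Cdc20 of mitosis. A match is a description of these letters and not a bound site.

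**Figure D1:**
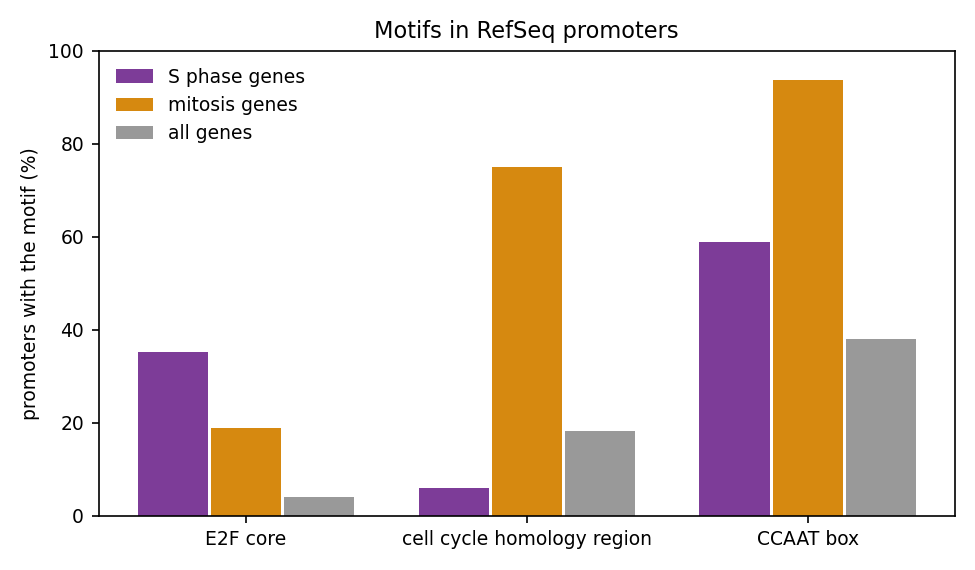
Share of RefSeq promoters (percent, y axis, from 250 bases before to 50 after the start) that hold each of 3 motifs on either strand, for S phase genes (17), mitosis genes (16) and all promoters (27025). The cell cycle homology region is in 75.0% of the mitosis promoters and 5.88% of the S phase promoters, and the E2F core in 18.75% and 35.3%.

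The libraries held 64325026, 58625420 and 75130565 counted molecules (UMIs, unique molecular identifiers) in CLL and 94841003, 23873416 and 32134578 in SHAM. After filters on cells and doublets, 3549, 10148 and 5630 CLL cells and 19346, 1848 and 6164 SHAM cells were kept. CLL replicate 2 and SHAM replicate 3 stood apart, since 4539 and 4885 of their cells fell in 2 clusters, 1 for each library, that were led by genes overlapping ribosomal RNA and were left unnamed. Pairs of libraries shared between 2 and 97 cell barcodes. Cells were clustered without any cell cycle gene, and a cluster was named by markers such as Cdh5 or Csf1r. Unnamed clusters held 527, 5824 and 979 cells in CLL and 3963, 306 and 5071 in SHAM, and are in no cell type below. In clusters 3 and 18 endothelial markers scored highest and in cluster 11 myogenic markers, but macrophage markers also passed. SHAM replicate 1 gave 2156 of the 2179 cells of cluster 3, 172 of 186 of cluster 18 and 452 of 560 of cluster 11. Cluster 2 (611 cells), led by Dlk1, Cxcl14 and Igf2, passed no marker list. The 5 cell types with at least 20 cells in every library are used below, and each is called "-like" because its name rests on markers. There were 38, 208 and 55 endothelial-like cells in the CLL libraries, against 2431, 290 and 165 in the SHAM libraries, so CLL values for this cell type rest on few molecules. A gene's level is the sum of its UMIs over the cells of a type in a library, as CPM, its share of the total count at a fixed library size, scaled by the trimmed mean of M values (TMM). A summed level cannot tell more dividing cells from more RNA per dividing cell, so the share of cycling cells is given beside it.

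In the SHAM libraries, endothelial-like cells were the most proliferative of the 5 cell types. They had the highest mean level of 40 of the 41 genes, and for 31 of these all 3 SHAM libraries lay above those of the next cell type. Mki67 averaged 119 ± 18.5 CPM in endothelial-like cells of SHAM muscle, against 62.6 ± 16.9 CPM in dendritic-like cells, the next in order, and 38.6 CPM in macrophage/monocyte-like cells, the lowest (SD, n = 3; levels here are CPM without TMM scaling). Mcm5 averaged 50.5 ± 11.5 CPM in endothelial-like cells, against 21.1 ± 0.491 CPM in myogenic-like cells (SD, n = 3). Ccne1, the cyclin E that opens S phase, was the exception, with 25.0 ± 1.97 CPM in myogenic-like cells and 8.91 ± 0.608 CPM in endothelial-like cells (SD, n = 3). In the CLL libraries the order differed: myogenic-like cells had the highest mean for 29 genes, endothelial-like cells for 5, macrophage/monocyte-like cells for 4 and fibroblast/tenocyte-like cells for 3.

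Cells were called cycling when, after each cell was thinned at random to 1000 UMIs, they held at least 3 UMIs from at least 2 of the 40 genes other than Stmn1, which resting cells also express. Cells with fewer than 1000 UMIs were left out, among them 82 endothelial-like cells of CLL and 393 of SHAM. This left 35, 142 and 42 endothelial-like cells in the CLL libraries, of which 2, 17 and 2 were called cycling. In the SHAM libraries it left 2054, 277 and 162, of which 443, 38 and 30 were called cycling. In endothelial-like cells the cycling share was 5.71%, 12.0% and 4.76% in the CLL libraries, against 21.6%, 13.7% and 18.5% in the SHAM libraries, a mean of 7.48 ± 3.92% against 17.9 ± 3.96% (SD, n = 3 each). In macrophage/monocyte-like cells it was 7.04%, 7.83% and 5.03% in CLL, against 2.85%, 0.704% and 3.39% in SHAM. In myogenic-like cells it was 17.0%, 14.8% and 16.5% in CLL, against 10.4%, 8.06% and 8.99% in SHAM. The groups did not overlap in any of the 3 cell types, with CLL below SHAM in endothelial-like cells and above it in macrophage/monocyte-like and myogenic-like cells. Without CLL replicate 2 and SHAM replicate 3, the differences CLL minus SHAM were -12.4 percentage points in endothelial-like, 4.26 in macrophage/monocyte-like and 7.50 in myogenic-like cells, against -10.5, 4.32 and 6.93 with all libraries. At 500 UMIs the endothelial-like difference was -1.17, and without thinning it was -2.80 in macrophage/monocyte-like and -0.69 in myogenic-like cells, against the direction of the summed levels. The directions at 1000 UMIs are those by which the genes were chosen.

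**Figure D2:**
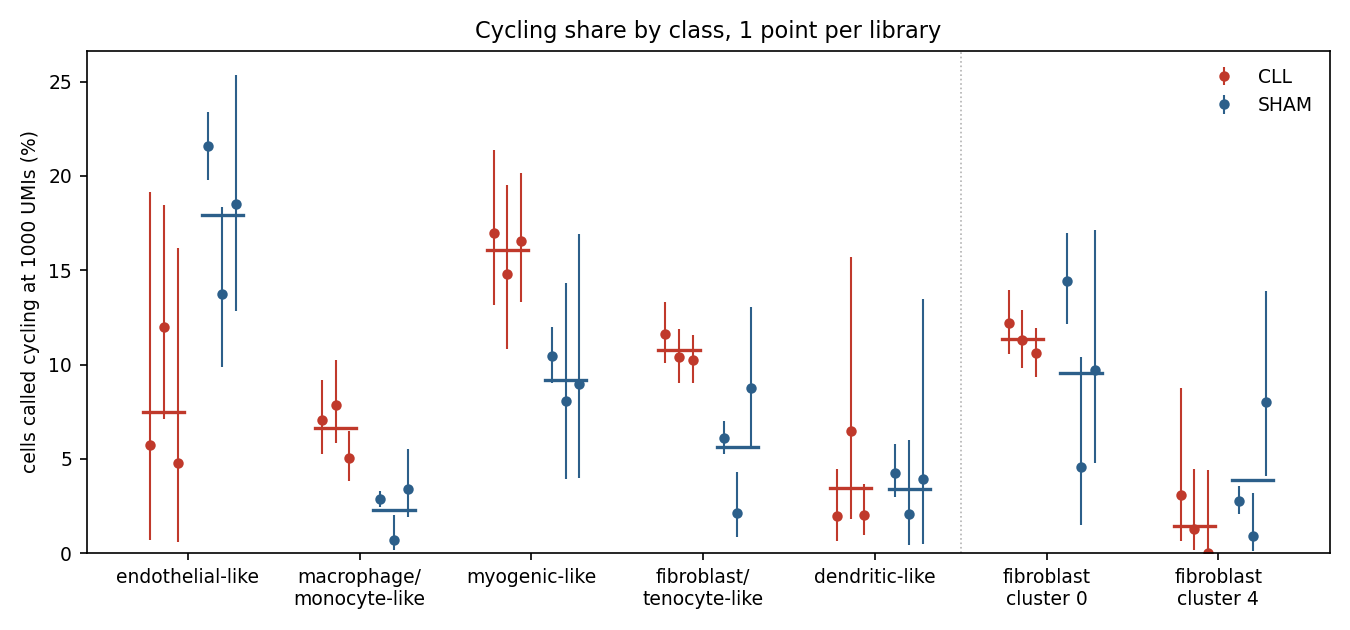
Share of cells called cycling at 1000 UMIs (percent, y axis) by cell type and, right of the dotted line, in fibroblast/tenocyte-like clusters 0 and 4, with 1 point per library and exact 95% binomial intervals, which cover counting error only. CLL (left of each pair) lies below SHAM in endothelial-like cells, above it in macrophage/monocyte-like, myogenic-like and fibroblast/tenocyte-like cells, and overlaps it in dendritic-like cells and in clusters 0 and 4.

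The share among myofibre-like barcodes, whose nuclei do not divide, is given as a reference, and the source of its calls was not tested. It was 2.94%, 3.33% and 0% in CLL and 1.43%, 0% and 0% in SHAM, at median depths before thinning of 3494.5, 1936.5 and 2270 UMIs in CLL and 5061, 1956 and 3015 UMIs in SHAM. Only 219 CLL and 144 SHAM barcodes stood behind these shares. In SHAM, the macrophage/monocyte-like share lay above all 3 SHAM myofibre-like shares in replicates 1 and 3, and within the range of the CLL and SHAM myofibre-like shares in replicates 1 and 2. The cells called cycling in those macrophage/monocyte-like cells held many of the set's transcripts before thinning, with 4343 UMIs over 160 cells, 553 UMIs over 3 cells and 3110 UMIs over 15 cells of SHAM replicates 1 to 3. Dendritic-like cells had 1.95%, 6.45% and 2.02% cycling cells in CLL, against 4.23%, 2.10% and 3.92% in SHAM, and the groups overlapped. Mural-like cells, the pericytes and smooth muscle cells around vessels, had 1, 0 and 0 cycling cells among 18, 19 and 8 cells in CLL, against 80, 9 and 1 among 668, 88 and 32 in SHAM. A mural share of CLL is thus too thin to compare.

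In endothelial-like cells the 41 genes had a median log2 fold (CLL over SHAM) of -0.98, beside -0.01 over all 9129 genes tested, and 40 of the 41 folds were negative. For 26 genes all 3 CLL libraries lay below all 3 SHAM libraries (15 S phase genes, 10 mitosis genes and Stmn1), where 10.1% of all genes did so. None lay wholly above, where 6.38% of all genes did. Across all genes, 0.252% were called lower at an adjusted p of 0.05 by edgeR's quasi-likelihood test. Ccnb2 and Stmn1 were among them, and no gene of the set was among the 0.11% called higher. The choice of genes used this contrast, and nothing is read from the counts.

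Among the S phase genes, the licensing factor Cdt1 had 0, 7.60 and 5.11 CPM in endothelial-like cells of CLL muscle (0, 3 and 1 UMIs), against 16.6, 20.5 and 24.7 CPM in SHAM. Tk1, the thymidine salvage kinase, had 11.8, 10.1 and 25.6 CPM in CLL, against 44.7, 44.5 and 55.6 CPM in SHAM. Pclaf, a PCNA-binding factor, had 11.8, 65.9 and 15.3 CPM in CLL, against 138, 103 and 107 CPM in SHAM. The groups did not overlap for any of these genes, and the log2 folds were -1.94 for Cdt1, -1.71 for Tk1 and -1.61 for Pclaf. Mcm5 had 11.8, 38.0 and 10.2 CPM in CLL, against 35.4, 51.2 and 60.2 CPM in SHAM, and overlapped in 1 library of each group. Ccne1 was counted 0, 1 and 0 times in CLL and 74, 19 and 21 times in SHAM. Its fold is among the 41 counted above but rests on too few CLL counts to be read alone. Pcna, the sliding clamp of DNA polymerase, was nearly level, with 112, 144 and 128 CPM in CLL and 162, 145 and 127 CPM in SHAM (log2 fold -0.15).

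Among the mitosis genes, Ccnb2 had 5.88, 7.60 and 15.3 CPM in endothelial-like cells of CLL muscle, against 41.7, 40.1 and 36.8 CPM in SHAM, a log2 fold of -2.09 ± 0.43 (SE). Ube2c, which builds ubiquitin chains on mitotic cyclins, had 17.7, 27.9 and 51.1 CPM in CLL, against 113, 67.2 and 99.1 CPM in SHAM. Cdk1 had 11.8, 48.2 and 25.6 CPM in CLL, against 85.6, 83.7 and 84.1 CPM in SHAM. All 3 genes were lower in every CLL library than in any SHAM library, with log2 folds of -1.56 for Ube2c and -1.36 for Cdk1. Ccnb1, the other B-type cyclin, had 17.7, 5.07 and 5.11 CPM in CLL and 22.1, 21.8 and 13.8 CPM in SHAM, and its groups overlapped. Mki67 had 129, 73.5 and 40.9 CPM in CLL and 126, 113 and 103 CPM in SHAM, and CLL replicate 1 was the highest of the 6 libraries. Of the 38 endothelial-like cells of that library, the 2 called cycling held 15 Mki67 UMIs. Top2a had 94.2, 63.4 and 61.3 CPM in CLL, against 134, 132 and 104 CPM in SHAM. Stmn1 had 112, 162 and 112 CPM in CLL, against 303, 263 and 315 CPM in SHAM, a log2 fold of -1.15.

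The summed level of mural markers in these same cells was 328 to 376 CPM in CLL and 1190 to 2181 CPM in SHAM (without TMM scaling). Of the 12 mural markers, 11 were tested and 4 were lower, and Kcnj8, Abcc9 and Higd1b had no UMI in any CLL library. The summed endothelial markers themselves (0 of 14 called) were 5843, 7067 and 6816 CPM in CLL and 7145, 7691 and 7152 CPM in SHAM, and dendritic markers 129 to 155 CPM in CLL and 245 to 404 CPM in SHAM (0 called of 2 tested, and 8 of 13 at 0 in every CLL library). Lymphatic endothelial markers, 7 genes of which 6 were tested and 0 called, summed to 2556, 23.8 and 700.5 CPM in CLL and 197, 49.9 and 288 CPM in SHAM. CLL replicate 2, with the lowest lymphatic sum, had the highest cycling share of the CLL libraries (12.0%). The part of any of these lists in the endothelial-like values was not tested.

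**Figure D3:**
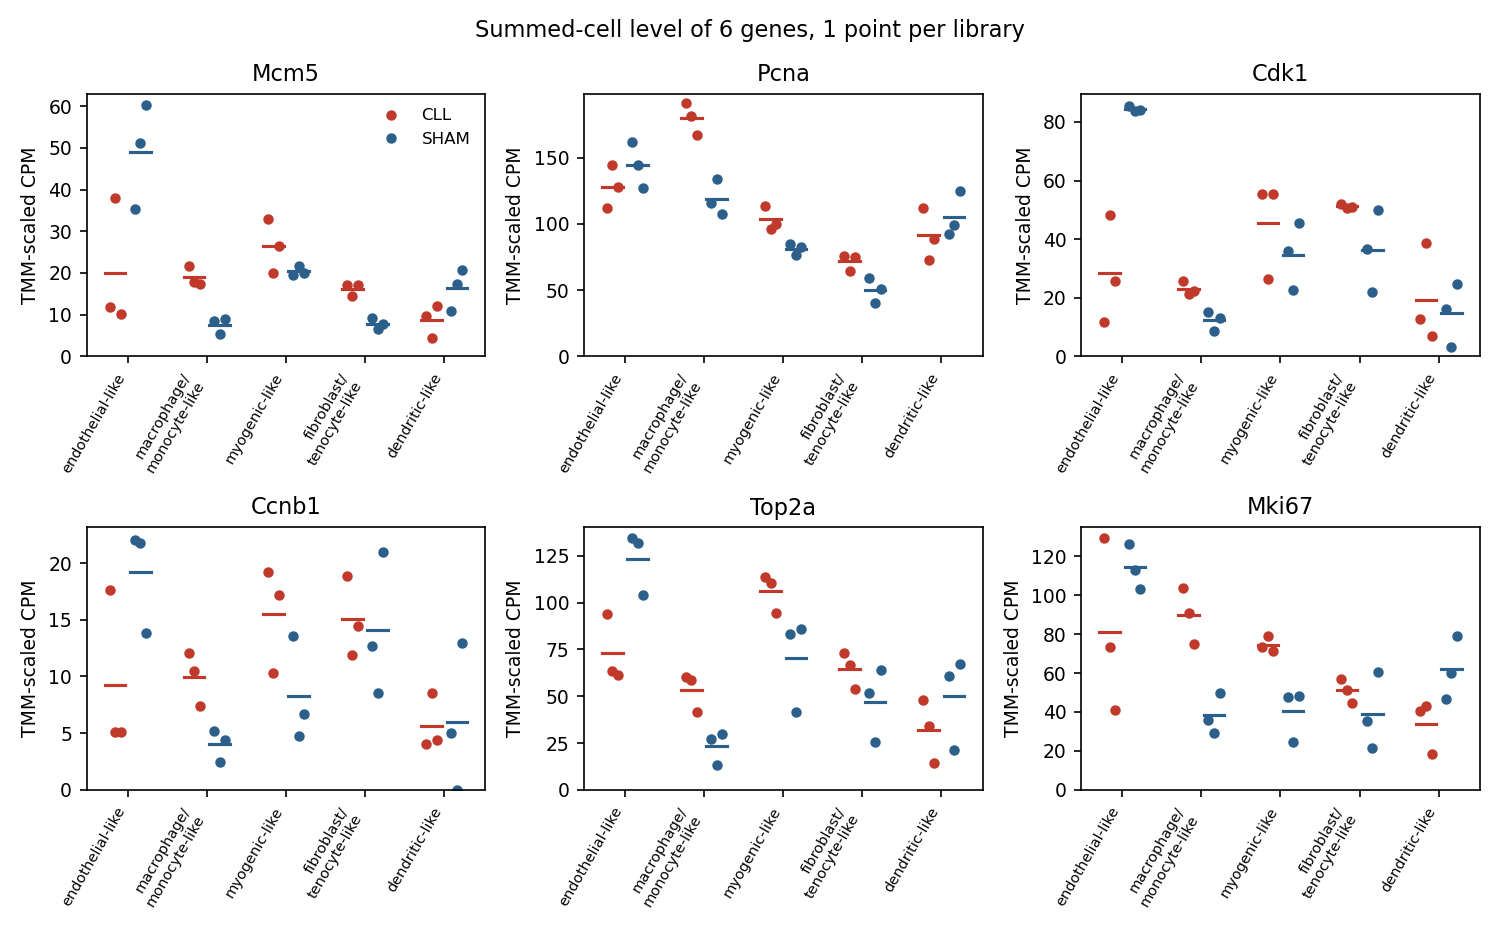
Summed-cell level (TMM-scaled CPM, y axis) of 6 genes in 5 cell types, with 1 point per library and a line at the mean of 3 libraries, CLL left of SHAM. Cdk1 in endothelial-like cells lies between 11.8 and 48.2 CPM in CLL, against 83.7 to 85.6 CPM in SHAM, while Mki67 in macrophage/monocyte-like cells lies between 74.8 and 104 CPM in CLL, against 29.2 to 49.9 CPM in SHAM.

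In macrophage/monocyte-like cells the set was higher in CLL, with a median log2 fold of 1.08 and all 41 folds positive, beside a median of 0.00 over 11598 genes. All 3 CLL libraries lay above all 3 SHAM libraries for 38 genes, where 13.1% of all genes did so. At the adjusted p of 0.05, 24 were called higher and 0 lower, where 1.7% of all genes were called higher and 2.41% lower. These counts restate how the genes were chosen. The cells came from clusters 9 (led by Gpnmb, Pf4 and F13a1) and 10 (led by H2-Aa and Cd74), and cluster 9 held 69.5%, 84.8% and 67.4% of them in CLL and 34.8%, 30.3% and 42.1% in SHAM. Within cluster 9 the median fold was 0.75 and 30 of 41 genes lay wholly above (11.1% of all genes). Within cluster 10 it was 0.60 over 35 genes tested, of which 10 lay wholly above (11.2% of all genes). At the adjusted p of 0.05, 5 genes were called higher in cluster 9 (0.735% of all genes) and 0 lower (1.15%), and 0 in either direction in cluster 10 (0.789% of all genes higher and 1.47% lower, with 9 of the set at an unadjusted p below 0.05 by edgeR and 0 called by DESeq2). Clusters 9 and 10 are parts of a cell type used in the choice, so nothing is read from these counts either.

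Ccne2, an E-type cyclin, had 4.67, 7.93 and 2.41 CPM in macrophage/monocyte-like cells of CLL muscle, against 2.46, 1.13 and 0.940 CPM in SHAM. Uhrf1, which carries DNA methylation through replication, had 12.3, 14.3 and 11.0 CPM in CLL, against 5.26, 2.64 and 4.81 CPM in SHAM. Hells, a chromatin remodeller of S phase, had 9.33, 13.8 and 7.61 CPM in CLL, against 4.69, 2.26 and 3.34 CPM in SHAM. The log2 folds were 1.52, 1.48 and 1.46 in that order, and the groups overlapped for Ccne2 but not for Uhrf1 or Hells. Mcm5 had 21.7, 17.9 and 17.3 CPM in CLL, against 8.58, 5.27 and 8.88 CPM in SHAM. Pcna had 191, 181 and 167 CPM in CLL, against 116, 134 and 108 CPM in SHAM, a smaller log2 fold of 0.60.

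Of the mitosis genes in these cells, Bub1, a spindle checkpoint kinase, had 6.42, 8.45 and 6.16 CPM in CLL, against 2.75, 1.13 and 3.34 CPM in SHAM. Tpx2, a spindle assembly factor, had 16.2, 23.3 and 14.7 CPM in CLL, against 8.20, 4.71 and 6.27 CPM in SHAM. Cenpf, a kinetochore protein, had 24.6, 22.0 and 18.4 CPM in CLL, against 9.19, 4.71 and 10.2 CPM in SHAM. All 3 were higher in every CLL library, with log2 folds of 1.43, 1.42 and 1.37 in that order. Mki67 had 104, 90.6 and 74.8 CPM in CLL, against 36.0, 29.2 and 49.9 CPM in SHAM, a log2 fold of 1.22. Top2a had 60.1, 58.9 and 41.8 CPM in CLL, against 27.1, 12.999 and 30.0 CPM in SHAM. Cdk1 had 25.8, 21.2 and 22.3 CPM in CLL, against 15.1, 8.48 and 13.2 CPM in SHAM, and Ccnb1 had 12.1, 10.5 and 7.36 CPM in CLL, against 5.17, 2.45 and 4.39 CPM in SHAM. Without CLL replicate 1, or without CLL replicate 2 and SHAM replicate 3 together, 0 of the 41 genes were called, although the median fold with both libraries left out was 1.14 and all folds stayed positive. The summed macrophage marker list in these cells was 40225 to 47412 CPM in CLL and 66280 to 74953 CPM in SHAM (without TMM scaling, 3 of 18 markers lower and none at 0), and its part was not tested.

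Myogenic-like cells were cluster 6, led by Chrna1, Cdh15 and Myog. The unnamed cluster 11, led by Cdh15, Dag1 and Pax7, is not among them. In myogenic-like cells the median log2 fold was 0.68, beside -0.02 over 11026 genes, and all 41 folds were positive. All 3 CLL libraries lay above all 3 SHAM libraries for 25 genes (16 S phase, 8 mitosis and Stmn1), where 16.9% of all genes did so. At the adjusted p of 0.05, 16 were called higher, and 0 lower, where 6.18% of all genes were called higher and 6.56% lower, again the direction of the choice. Without CLL replicate 1 it was 3 genes, and without CLL replicate 3 it was 5. Ccne2 had 12.5, 16.0 and 9.13 CPM in CLL, against 6.77, 2.84 and 3.82 CPM in SHAM, and Cdc6, a licensing factor, had 4.60, 4.56 and 5.28 CPM in CLL, against 2.30, 1.89 and 3.35 CPM in SHAM. Among the mitosis genes, Cenpe, a kinetochore motor, had 29.1, 28.5 and 27.4 CPM in CLL, against 16.4, 9.94 and 10.5 CPM in SHAM. Birc5, the survivin subunit of the chromosomal passenger complex, had 102, 66.1 and 97.3 CPM in CLL, against 55.2, 29.3 and 42.5 CPM in SHAM. These 4 genes did not overlap between the groups, with log2 folds of 1.21 for Ccne2, 0.99 for Cdc6, 1.11 for Cenpe and 1.04 for Birc5.

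Cenpf in myogenic-like cells had 47.3, 38.8 and 48.3 CPM in CLL, against 30.6, 17.5 and 16.2 CPM in SHAM, and Ccnb2 had 36.3, 31.9 and 36.3 CPM in CLL, against 20.9, 17.5 and 15.8 CPM in SHAM. Mki67 had 73.4, 79.3 and 71.2 CPM in CLL, against 47.9, 24.6 and 48.3 CPM in SHAM, a log2 fold of 0.85. Top2a had 114, 111 and 94.5 CPM in CLL, against 83.3, 41.6 and 86.0 CPM in SHAM. None of these genes overlapped between the groups, whereas Mcm5, Cdk1 and Ccnb1 did so. Mcm5 had 32.9, 19.96 and 26.5 CPM in CLL and 19.5, 21.8 and 20.1 CPM in SHAM, and Cdk1 had 55.4, 26.2 and 55.4 CPM in CLL and 36.0, 22.7 and 45.4 CPM in SHAM. Ccnb1 had 19.2, 10.3 and 17.2 CPM in CLL and 13.5, 4.73 and 6.69 CPM in SHAM. Pcna had 114, 96.4 and 100.3 CPM in CLL, against 84.6, 76.7 and 82.2 CPM in SHAM, a log2 fold of 0.35 and no overlap. Macrophage markers summed to 211 to 411 CPM in the myogenic-like cells of CLL and 795 to 1546 CPM in those of SHAM (without TMM scaling, 7 of 13 tested markers lower, 18 in the list and none at 0), and mural markers to 2791, 2895 and 3534 CPM in CLL and 1557, 1452 and 1610 CPM in SHAM (3 higher and 1 lower of 8 tested, 12 in the list and none at 0). The summed myogenic markers themselves were 2462, 2077 and 3001 CPM in CLL and 2300, 2685 and 3134 CPM in SHAM (2 higher and 4 lower of 12). The part of any of these lists was not tested.

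The side of the cycle was described with separate calls, of at least 2 UMIs from the 21 S phase genes or from the 19 mitosis genes at 1000 UMIs. S phase cells made up 2.86%, 12.0% and 4.76% of endothelial-like cells in CLL, against 21.1%, 15.5% and 18.5% in SHAM, and mitosis cells 8.57%, 7.75% and 7.14% in CLL, against 15.2%, 10.1% and 11.7% in SHAM. In macrophage/monocyte-like cells, S phase cells made up 9.44%, 8.32% and 6.11% in CLL, against 4.74%, 2.35% and 3.84% in SHAM, and mitosis cells 5.07%, 6.85% and 3.77% in CLL, against 2.28%, 0.704% and 2.48% in SHAM. In both cell types both calls kept the groups apart. In myogenic-like cells the mitosis share was 9.65%, 10.5% and 12.1% in CLL, against 7.43%, 6.45% and 6.74% in SHAM, with no overlap. The S phase share of those cells did overlap, at 14.9%, 12.3% and 16.1% in CLL and 11.2%, 12.9% and 10.1% in SHAM.

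The choice of the genes did not use fibroblast/tenocyte-like cells, and here the comparison is a test. These cells come from cluster 0 for the most part in CLL and from cluster 4 in SHAM, and the clusters are taken one by one after the whole class. Of the 21 S phase genes, 17 rose in CLL at an adjusted p of 0.05 by edgeR's quasi-likelihood test with Benjamini-Hochberg adjustment over 14283 genes, and of the 19 mitosis genes only Bub1 did. None of the 41 fell. Across all genes, 11.5% were called higher and 12.5% lower. The median log2 fold was 0.64 over the S phase genes and 0.38 over the mitosis genes, beside -0.02 over all genes. Without CLL replicate 2 and SHAM replicate 3 together, 10 S phase genes and 3 mitosis genes were called and the median over the 41 genes was 0.72, against 0.48 with all libraries.

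Hells had 24.1, 23.2 and 21.4 CPM in fibroblast/tenocyte-like cells of CLL muscle, against 10.4, 9.20 and 11.2 CPM in SHAM, and rose by a log2 fold of 1.15 ± 0.12 (SE, adjusted p 0.000521). Ccne2 had 10.0, 12.6 and 7.05 CPM in CLL, against 4.99, 3.94 and 4.03 CPM in SHAM, and rose by 1.17 ± 0.24 (SE, adjusted p 0.00782). Mcm5 had 17.2, 14.5 and 17.0 CPM in CLL, against 9.14, 6.57 and 7.70 CPM in SHAM, and rose by 1.03 ± 0.15 (SE, adjusted p 0.00211). No library of 1 group lay within the range of the other for any of these S phase genes. Rrm2, the small subunit of ribonucleotide reductase, had 20.2, 19.6 and 19.5 CPM in CLL, against 11.4, 6.83 and 12.0 CPM in SHAM, and rose by 0.95 ± 0.18 (SE, adjusted p 0.00567). Ccne1 had 12.0, 15.5 and 12.0 CPM in CLL, against 6.64, 7.10 and 7.21 CPM in SHAM, and rose by 0.92 ± 0.16 (SE, adjusted p 0.00366). Pcna had 76.0, 64.4 and 75.2 CPM in CLL, against 58.8, 39.9 and 50.8 CPM in SHAM, and rose by 0.52 ± 0.15 (SE, adjusted p 0.0299). The S phase genes that did not pass the test were Mcm2, Cdt1, Cdc6 and Tk1.

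The mitosis genes of fibroblast/tenocyte-like cells were spread more widely among the SHAM libraries. Bub1 had 8.29, 8.64 and 7.07 CPM in CLL, against 4.26, 1.71 and 5.50 CPM in SHAM, a log2 fold of 1.04 ± 0.30 (SE, adjusted p 0.0308). Mki67 had 57.1, 51.5 and 44.7 CPM in CLL and 35.5, 21.4 and 60.4 CPM in SHAM, a log2 fold of 0.39 ± 0.28 (SE, adjusted p 0.349). Top2a had 73.3, 66.9 and 54.0 CPM in CLL and 51.6, 25.6 and 63.8 CPM in SHAM (adjusted p 0.234). SHAM replicate 2 was the lowest library for all 3, and SHAM replicate 3 lay within or above the CLL range for Mki67 and Top2a. Cdk1 had 52.1, 50.5 and 50.9 CPM in CLL and 36.8, 21.8 and 49.97 CPM in SHAM (0.50 ± 0.23 on the log2 scale, SE, with an adjusted p of 0.136). Ccnb1 had 18.8, 11.9 and 14.4 CPM in CLL and 12.7, 8.54 and 21.02 CPM in SHAM (0.10 ± 0.28 on the log2 scale, SE, with an adjusted p of 0.82). Without SHAM replicate 3, Mki67 had a log2 fold of 0.82 with an adjusted p of 0.0257, and Cdk1 an adjusted p of 0.0245. Bub1 lost its call without any 1 CLL library (log2 folds 0.99 to 1.13, adjusted p from 0.0705 to 0.0907) and without doublet removal (0.91, adjusted p 0.0629). Pcna lost its call without CLL replicate 1 or 3 or SHAM replicate 2 or 3 (log2 folds 0.40 to 0.53, adjusted p from 0.0634 to 0.0985). Without CLL replicate 2 and SHAM replicate 3 together, Bub1 (log2 fold 1.26, adjusted p 0.0585), Pcna (0.61, adjusted p 0.0771) and Ccne2 (0.92, adjusted p 0.0585) lost their calls.

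**Figure D4:**
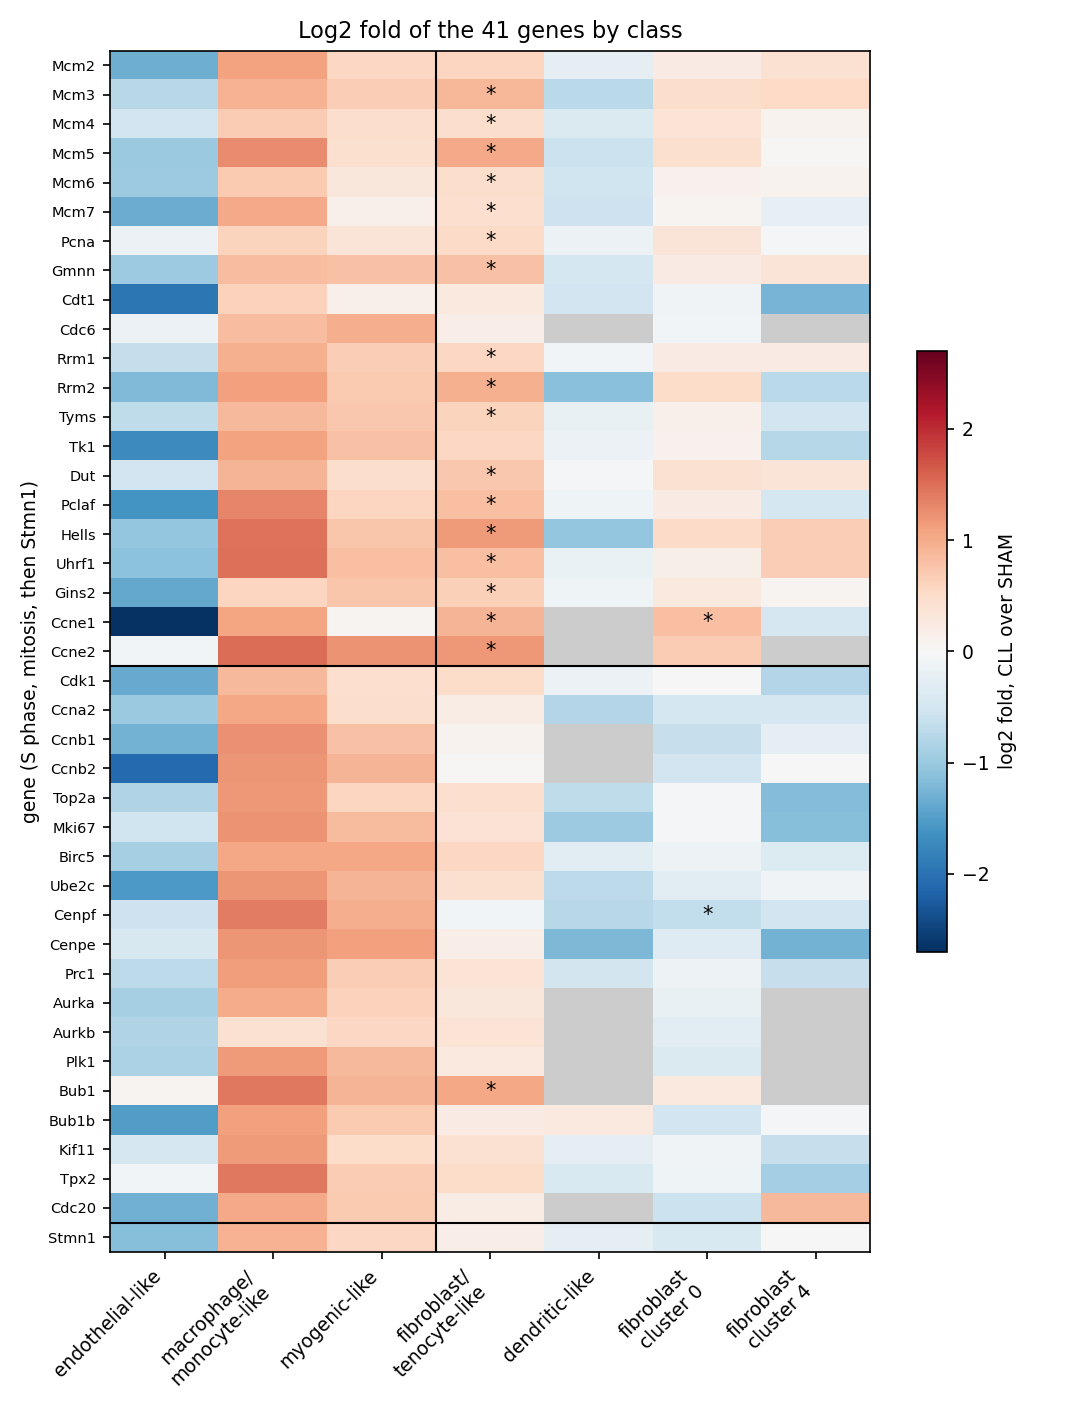
Log2 fold (CLL over SHAM, colour) of the 41 genes (rows: S phase above the first line, mitosis below it, Stmn1 last) in each cell type and in fibroblast/tenocyte-like clusters 0 and 4 (columns); an asterisk marks an adjusted p below 0.05, drawn only right of the vertical line, in the columns that the choice of genes did not use, and grey marks genes not tested. The 3 columns left of the line are blue in endothelial-like cells (40 of 41 folds negative) and red in macrophage/monocyte-like and myogenic-like cells (all 41 positive).

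In fibroblast/tenocyte-like cells 11.6%, 10.4% and 10.2% were called cycling in CLL, against 6.09%, 2.11% and 8.75% in SHAM, with no overlap. The S phase call gave 11.1%, 10.2% and 10.4% in CLL, against 6.83%, 3.32% and 6.67% in SHAM. The mitosis call gave 8.43%, 7.59% and 8.09% in CLL, against 5.31%, 2.11% and 7.50% in SHAM. Without CLL replicate 2 and SHAM replicate 3 the cycling share differed by 6.83 percentage points, against 5.10 with all libraries. These shares are scores over the chosen genes and carry no test.

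The class of fibroblast/tenocyte-like cells was made of different cells in the groups. Cluster 0, led by Ecrg4, Ddah1, Cthrc1 and the tenocyte gene Tnmd, held 93.8%, 91.0% and 96.5% of its cells in CLL, against 28.3%, 32.8% and 41.5% in SHAM. The rest were in cluster 4, led by Clec3b, Dlk1 and Pi16, of which Clec3b and Pi16 are genes of adventitial fibroblasts. Cluster 0 had the higher summed S phase level and the higher summed mitosis level in 6 of 6 libraries. In cluster 0 the S phase sum was 609, 629 and 591 CPM in CLL and 699, 402 and 454 CPM in SHAM, and in cluster 4 it was 348, 242 and 338 CPM in CLL and 319, 234 and 389 CPM in SHAM (without TMM scaling). The mitosis sum of cluster 0 was 587, 542 and 493 CPM in CLL and 788, 487 and 731 CPM in SHAM, and that of cluster 4 was 306, 57.0 and 123 CPM in CLL and 221, 84.6 and 502 CPM in SHAM. Within either cluster the groups overlapped in both sums, which they did not for the S phase sum of the whole class (598, 613 and 585 CPM in CLL, against 466, 307 and 425 CPM in SHAM).

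Within cluster 0, 1 of the 41 genes rose and 1 fell, where 2.25% of all 13669 genes rose and 2.91% fell. Both counts are near the shares over all genes, and nothing about the set is read from them. Ccne1 had 12.3, 15.9 and 11.9 CPM in CLL, against 8.23, 7.60 and 6.92 CPM in SHAM, and rose by a log2 fold of 0.81 ± 0.19 (SE, edgeR adjusted p 0.0362). Cenpf had 39.5, 32.7 and 30.1 CPM in CLL, against 48.2, 52.0 and 62.3 CPM in SHAM, and fell by 0.67 ± 0.15 on the log2 scale (SE, adjusted p 0.0305). The sides of the cycle had opposite medians here, 0.23 over the S phase genes (19 of 21 folds positive) and -0.31 over the mitosis genes (18 of 19 negative), a difference for which no test was run. All 3 CLL libraries lay above SHAM for 7 genes, all of S phase (13.8% of all genes did so), and below it for 5 mitosis genes and Stmn1 (13.3%). Over the 41 genes, these counts too are near the shares over all genes. Ccne1 lost its call on leaving out any library but SHAM replicate 1 (log2 folds 0.66 to 0.88, adjusted p 0.0584 to 0.112). Cenpf lost its call on leaving out any CLL library or SHAM replicate 3 (log2 folds -0.80 to -0.54, adjusted p 0.0549 to 0.129). Without CLL replicate 2 and SHAM replicate 3 together 0 genes were called, and the medians were then 0.14 over S phase and -0.12 over mitosis genes. Hells had 24.4, 23.7 and 21.4 CPM in CLL and 16.9, 17.0 and 14.5 CPM in SHAM (log2 fold 0.52, adjusted p 0.0554). Mki67 was level, with 58.1, 53.2 and 44.9 CPM in CLL and 59.3, 37.1 and 63.6 CPM in SHAM (log2 fold -0.05, adjusted p 0.914).

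Within cluster 4, 0 of 35 genes tested passed the edgeR test, with 1 at an unadjusted p below 0.05 and 0 by DESeq2, where 5.69% of all 10647 genes rose and 4.75% fell. The cycling share was 12.2%, 11.3% and 10.6% in cluster 0 of CLL and 14.4%, 4.59% and 9.71% in cluster 0 of SHAM. In cluster 4 it was 3.09%, 1.26% and 0% in CLL and 2.75%, 0.901% and 8.03% in SHAM. In both clusters the groups overlapped.

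**Figure D5:**
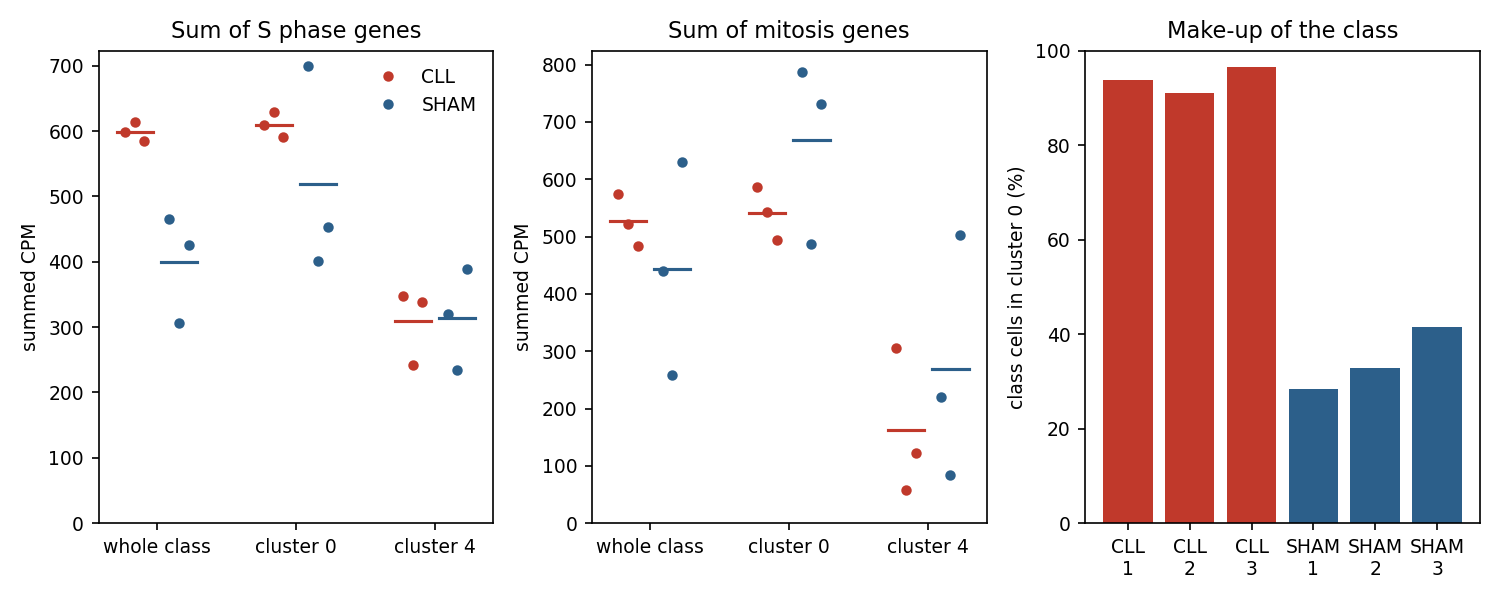
Summed level of the 21 S phase genes (left) and of the 19 mitosis genes (middle), in CPM without TMM scaling, for all fibroblast/tenocyte-like cells and for clusters 0 and 4, with 1 point per library and a line at the mean, CLL left of SHAM; the right panel gives the percent of the cells of this class in cluster 0 for each library. The S phase sum separates the groups in the whole class (585 to 613 CPM in CLL, against 307 to 466 CPM in SHAM) but not within cluster 0 or cluster 4, and cluster 0 holds 91.0% to 96.5% of the class in CLL, against 28.3% to 41.5% in SHAM.

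Macrophage markers in the fibroblast/tenocyte-like cells summed to 373 to 731 CPM in CLL and 663 to 1387 CPM in SHAM, with 11 of 15 tested markers lower. Mural markers summed to 1087 to 1495 CPM in CLL and 282 to 814 CPM in SHAM, with 2 of 12 higher and 7 lower, and no marker of either list was at 0 in a whole group. These sums are without TMM scaling, and the part of either cell type in the values above was not tested.

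In dendritic-like cells 31 of the 41 genes had enough counts to be tested, and 0 passed the edgeR test, with 3 at an unadjusted p below 0.05 and 0 by DESeq2. The folds were negative for 30 of the 31 genes (18 of 18 of S phase and 11 of 12 of mitosis), with a median log2 fold of -0.41 beside -0.03 over all genes, but the median was -0.04, with 18 of 33 negative, without CLL replicate 2 and SHAM replicate 3. Of all 8242 genes, 0.206% were called higher and 0.328% lower. The genes left out were Cdc6, Ccne1, Ccne2, Ccnb1, Ccnb2, Aurka, Aurkb, Plk1, Bub1 and Cdc20. Mki67 had 40.3, 42.9 and 18.6 CPM in CLL, against 46.7, 59.9 and 79.2 CPM in SHAM, a log2 fold of -0.97 ± 0.33 (SE, adjusted p 0.226, and 0.0381 without the filter on low counts). Top2a had 47.8, 34.3 and 14.2 CPM in CLL and 60.8, 21.3 and 67.5 CPM in SHAM (adjusted p 0.595). Mcm5 had 9.78, 4.29 and 12.1 CPM in CLL and 10.8, 17.2 and 20.8 CPM in SHAM (adjusted p 0.589). The groups overlapped for Mcm5 and Top2a but not for Mki67. All 3 CLL libraries lay below SHAM for 3 of the 31 genes, where 9.62% of all genes did so, and above it for 0, where 7.95% did so. Pcna had 112, 72.9 and 88.8 CPM in CLL and 92.1, 99.4 and 125 CPM in SHAM (adjusted p 0.849), and Cdk1 had 12.7, 38.6 and 6.94 CPM in CLL and 16.2, 3.28 and 24.7 CPM in SHAM (adjusted p 0.961). Macrophage markers in these cells summed to 2106 to 2570 CPM in CLL and 3461 to 4958 CPM in SHAM (3 of 18 lower and none at 0, without TMM scaling), and their part was not tested.

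Other genes of the cycle, which are no part of the 41, were read from 4 lists. In fibroblast/tenocyte-like cells, 13 of 34 further S phase genes rose and 0 fell by the edgeR test, and 8 of 48 further G2 and mitosis genes rose and 0 fell, beside 11.5% of all genes higher and 12.5% lower. The second count is near the share over all genes. Mcm10, which activates the helicase, had 3.66, 3.38 and 2.87 CPM in CLL, against 1.16, 0.657 and 1.59 CPM in SHAM (1.52 ± 0.29 on the log2 scale, SE, with an adjusted p of 0.00628). Clspn, an adaptor of the replication checkpoint, had 19.2, 20.1 and 16.1 CPM in CLL, against 8.47, 5.39 and 10.9 CPM in SHAM (1.16 ± 0.21 on the log2 scale, SE, with an adjusted p of 0.00462). Cenpm, a centromere protein, had 23.0, 21.7 and 24.1 CPM in CLL, against 11.6, 9.07 and 13.2 CPM in SHAM (1.02 ± 0.14 on the log2 scale, SE, with an adjusted p of 0.00159). All 3 were higher in every CLL library, and so were the origin gene Orc1 (adjusted p 0.00715), the kinetochore gene Spc24 (adjusted p 0.00402) and the Cdk-binding gene Cks2 (adjusted p 0.00732). Within cluster 0, 1 of 34 further S phase genes rose and 0 fell by the edgeR test. Of 48 further G2 and mitosis genes, 0 rose and 1 fell. These counts are near the shares over all genes of cluster 0, 2.25% higher and 2.91% lower. The gene that rose in cluster 0 was Mcm10 (3.72, 3.50 and 2.89 CPM in CLL, against 1.42, 0.912 and 0.893 CPM in SHAM, 1.58 ± 0.32 on the log2 scale, SE, with an adjusted p of 0.0222). The centromeric histone gene Cenpa fell there, with 57.0, 49.1 and 55.2 CPM in CLL, against 82.3, 69.6 and 77.0 CPM in SHAM (-0.51 ± 0.12 on the log2 scale, SE, with an adjusted p of 0.043). Both lost their calls on leaving out any CLL library or SHAM replicate 3, with adjusted p of 0.0654 to 0.0966 for Mcm10 and 0.114 to 0.146 for Cenpa. Of 12 genes of entry into the cycle, 0 passed the edgeR test in fibroblast/tenocyte-like cells and 3 had an unadjusted p below 0.05, and Ccnd1, cyclin D1, had 19.01, 19.1 and 17.2 CPM in CLL and 38.6, 18.8 and 25.0 CPM in SHAM (adjusted p 0.068).

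Of 20 brakes of the cycle and genes of arrest, 3 rose and 3 fell in fibroblast/tenocyte-like cells, near the shares over all genes (11.5% higher and 12.5% lower). Cdkn1c, the Cdk inhibitor p57, had 366, 329 and 320.1 CPM in CLL, against 952, 1546 and 1342 CPM in SHAM, and fell by 1.92 ± 0.18 on the log2 scale (SE, edgeR adjusted p 0.000259). Gadd45a, a stress-induced growth arrest gene, had 35.7, 30.9 and 35.5 CPM in CLL, against 65.3, 88.6 and 63.9 CPM in SHAM, and fell by 1.09 ± 0.14 (SE, adjusted p 0.00121). Gas1, a growth arrest gene of the cell surface, had 287, 246 and 279 CPM in CLL, against 424, 614 and 613 CPM in SHAM, and fell by 1.02 ± 0.16 (SE, adjusted p 0.00253). The groups were far apart for all 3. The genes that rose were Cdkn2b, Gadd45b and Btg2, named here after their values were seen, with log2 folds of 1.43, 0.72 and 0.51. Cdkn1a, the p53 target p21, had 22.3, 23.0 and 19.2 CPM in CLL and 30.0, 8.67 and 23.3 CPM in SHAM in the whole class (adjusted p 0.969), and Cdkn1b, the inhibitor p27, had a log2 fold of -0.07 (adjusted p 0.761).

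Within cluster 4, which had few cycling cells, Cdkn1a did differ. It had 63.9, 94.5 and 70.1 CPM in CLL, against 30.6, 11.2 and 21.4 CPM in SHAM, and rose by a log2 fold of 1.81 ± 0.30 (SE, edgeR adjusted p 0.00285). Cdkn1c in cluster 4 had 569.9, 381 and 536 CPM in CLL, against 1379, 2268 and 2327 CPM in SHAM, and fell by 2.01 ± 0.23 (SE, adjusted p 0.000418). The summed levels of the 2 inhibitors thus moved in opposite directions within cluster 4, each with no overlap between the groups. Whether they did so in the same single cells was not tested. In cluster 0, Cdkn1a had 20.3, 19.7 and 17.6 CPM in CLL and 31.0, 5.78 and 25.7 CPM in SHAM (adjusted p 0.819), and Cdkn1c had 354, 325 and 309.5 CPM in CLL and 366, 688 and 606 CPM in SHAM (adjusted p 0.067). Whether the clusters differ in these responses was not tested.

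In the other cell type with a test, dendritic-like cells, 0 of 17 further S phase genes and 0 of 22 further G2 and mitosis genes passed the edgeR test (1 and 3 at an unadjusted p below 0.05). Ccnd2, cyclin D2, had 26.5, 51.4 and 29.6 CPM in CLL, against 96.6, 80.5 and 129.8 CPM in SHAM, and fell by 1.69 ± 0.28 on the log2 scale (SE, adjusted p 0.0196). It was the only gene of entry that passed there, 1 of 11 tested, and it lost its call without CLL replicate 1 (adjusted p 0.25) or CLL replicate 3 (adjusted p 0.304).

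In the 3 cell types that chose the genes, brakes and entry genes are given as values only. Endothelial-like cells had 112, 266 and 261 CPM of Cdkn1a in CLL, against 94.3, 63.2 and 78.6 CPM in SHAM, a log2 fold of 1.46 with no overlap. Their Ccnd1 level was 271, 489 and 307 CPM in CLL and 447, 547 and 617 CPM in SHAM. Macrophage/monocyte-like cells had 318, 283 and 281 CPM of Cdkn1a in CLL, against 384, 502 and 379 CPM in SHAM. Cdkn1a was thus above SHAM in the endothelial-like cells of every CLL library and below it in their macrophage/monocyte-like cells. Myogenic-like cells had 60.5, 38.8 and 55.7 CPM of Myc in CLL, against 92.1, 100.3 and 119 CPM in SHAM, and 46.3, 62.2 and 34.0 CPM of Ccnd1 in CLL, against 77.0, 101 and 81.7 CPM in SHAM. Their Gadd45a level was 113, 95.8 and 111 CPM in CLL, against 219, 299 and 311 CPM in SHAM. All 3 genes were lower in every CLL library of myogenic-like cells, which had the higher levels of the replication genes.

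Across 23 sums of 1 cell type in 1 SHAM library, the genes varied together more closely within a side of the cycle than across it. The median Pearson correlation of log2 CPM was 0.74 over 190 pairs of 20 S phase genes, 0.85 over 171 pairs of mitosis genes and 0.68 over 380 pairs of 1 of each. The sums share their libraries and differ in depth, so these values are a description. By the same measure, the genes outside the 41 most like Mki67 among 10770 were Ckap2l (0.926), Knstrn (0.916), Hmgb2 (0.914), Ndc80 (0.901) and Ncaph (0.891).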

How the data were processed

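The 6 libraries were deposited by the authors as matrices of UMI counts per gene and barcode (10x Genomics 3' chemistry), with Cell Ranger 6.1.2 and the mm10 genome named in the submitters' processing notes. The lowest barcode of a library held 500 to 506 UMIs. Cells needed 300 detected genes and no more than 15% of UMIs from mitochondrial genes, and the highest doublet scores (scrublet in scanpy 1.11.5) were removed at 0.8% per 1000 barcodes, which took 1.65% to 20.0% of a library. Clustering used 2000 variable genes after 255 cell cycle and histone genes were left out, 30 components, 15 neighbours and a resolution of 1, with no integration. The rule by which marker lists name clusters was set with the clusters seen.

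Counts were summed per library and cell type and fitted with edgeR 4.0.16 (TMM, quasi-likelihood test, Benjamini-Hochberg adjustment over all genes of a type, threshold 0.05), on R 4.3.3, with DESeq2 1.42.0 as an alternative. The fit was tested on simulated counts. The labels say that libraries are separate samples but not how mice were assigned, so p-values measure the spread between these 6 libraries. Shares carry exact binomial intervals at 95%, which cover counting error only.

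The 41 genes and the lists were chosen with earlier results of these data known. Genes with values per library were Mki67, Top2a, Mcm5, Pcna, Cdk1 and Ccnb1, up to 6 of the 41 genes a cell type with the largest fold (among those called, where a test was allowed), up to 3 genes of each other list with the smallest p, and Cdkn1a, Cdkn1b, Cdkn1c, Ccnd1 and Myc. The gene lists held 34 further S phase genes, 48 further G2 and mitosis genes, 12 entry genes and 20 brakes. Levels within cycling cells were not compared, since no cell type had 20 cycling cells in every library. Promoters and their motifs were read from RefSeq tables of GRCm38.p6.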

Additional observations from a re-analysis of the deposited data

Results flagged for a closer look

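The cycling share moved in opposite directions in endothelial-like cells and in 3 other cell types, with no overlap between the CLL and SHAM libraries in any of the 4. The difference CLL minus SHAM was -10.5 percentage points in endothelial-like cells, 5.10 in fibroblast/tenocyte-like, 4.32 in macrophage/monocyte-like and 6.93 in myogenic-like cells. The endothelial-like difference was thus 15.6 points below the fibroblast/tenocyte-like one (-15.6), 14.8 points below the macrophage/monocyte-like one (-14.8) and 17.4 points below the myogenic-like one (-17.4). These differences between cell types were not tested, and except for fibroblast/tenocyte-like cells the directions are those by which the genes were chosen. Within the clusters of the fibroblast/tenocyte-like class the difference was 1.78 points in cluster 0 and -2.44 in cluster 4, and the groups overlapped in both. Cluster 0 held 91.0% to 96.5% of that class in CLL and 28.3% to 41.5% in SHAM. The part of this make-up in the 5.10 points was not tested.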

How the results depend on the processing

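Values of 211 named genes by cell type were compared with the alternatives run. In dendritic-like and fibroblast/tenocyte-like cells and clusters 0 and 4, 65 values lost a call, 33 gained one and no called fold changed direction. In the cell types that chose the genes and in clusters 9 and 10, calls of single genes were not compared. There, 33 values moved by more than the spread between libraries, and no fold larger than that spread changed direction. The other 2286 values kept their call or stayed within the spread. The number of the 41 genes called depended on the settings. In endothelial-like cells (2 called) it was 0 with RLE factors or without doublet removal, 7 without the filter on low counts, and 1 without CLL replicate 2 and SHAM replicate 3 together. In macrophage/monocyte-like cells (24 called) it was 38 without the filter and 0 without both libraries. Without the filter it was 30 in myogenic-like cells (16 called), 1 in dendritic-like cells (0 called), 6 in cluster 0 (2 called), 4 in cluster 4 (0 called), 19 in cluster 9 (5 called) and 3 in cluster 10 (0 called). DESeq2 called 4 in cluster 0 and 10 in cluster 9. Without both libraries it was 0 in cluster 0, 1 in cluster 4 and 0 in cluster 9, and the median log2 fold was 0.72 in fibroblast/tenocyte-like cells (0.48 with all) and 0.47 in cluster 4 (-0.21 with all). Over all settings run, the number called over all genes ranged from 6 to 188 in endothelial-like and 20 to 1346 in macrophage/monocyte-like cells. It ranged from 516 to 2148 in myogenic-like, 1681 to 3964 in fibroblast/tenocyte-like and 1 to 335 in dendritic-like cells. In clusters 0, 4, 9 and 10 it ranged from 25 to 1503, 548 to 1769, 0 to 852 and 1 to 783. Changes in the counts of the 41 genes are thus not read as particular to them. The clusters alone and their counts were added as alternatives after the data were seen. The cause of these shifts was not tested.

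Leaving out 1 library at a time, the number called ranged from 11 to 21 in fibroblast/tenocyte-like cells, where leaving out CLL replicate 1 or CLL replicate 3 gave 11, and the median fold from 0.36 to 0.72. It ranged from 0 to 24 in macrophage/monocyte-like cells, with 0 when CLL replicate 1 was left out, 2 for CLL replicate 3, and 7 for CLL replicate 2 or SHAM replicate 3. It ranged from 3 to 19 in myogenic-like cells, with 3 for CLL replicate 1 and 5 for CLL replicate 3, and from 0 to 3 in endothelial-like cells. In cluster 0 it ranged from 0 to 10, with 10 without SHAM replicate 1, and the median fold from -0.038 to 0.22. It ranged from 0 to 6 in cluster 9 and from 0 to 1 in cluster 10.

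CLL and SHAM replicates share numbers, but the labels do not say whether the numbers pair the libraries, and the main fit did not pair them. Correlations of same-numbered deviations were 0.146, 0.190 and 0.072 in endothelial-like cells, -0.1695, -0.122 and 0.0696 in myogenic-like cells, and mixed elsewhere. Those of differently numbered libraries lay between -0.131 and -0.025 in endothelial-like cells and between -0.137 and 0.211 in myogenic-like cells. With the replicate block, 6 genes were called in endothelial-like cells, 10 in macrophage/monocyte-like cells and 0 in cluster 0, and Bub1 in fibroblast/tenocyte-like cells had an adjusted p of 0.0545. The block also ended the calls of Ccnd2 in dendritic-like cells (0.0748) and, in cluster 0, of Ccne1 (0.0705), Cenpf (0.0726), Mcm10 (0.0536), Cenpa (0.077), Gadd45a (0.0732), Gadd45b (0.0795) and Pmaip1 (0.0898).

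Cycling shares depended on depth. Without thinning, the difference CLL minus SHAM was -18.3 points in endothelial-like, 17.1 in fibroblast/tenocyte-like and -8.77 in dendritic-like cells (0.0561 at 1000 UMIs). It turned negative in macrophage/monocyte-like (-2.80), myogenic-like (-0.69), cluster 9 (-3.67) and cluster 10 (-5.98) cells, against summed levels that were higher in CLL, and no order is read from the unthinned shares. At 500 UMIs it was -1.17 in endothelial-like, 2.15 in fibroblast/tenocyte-like, 1.72 in macrophage/monocyte-like, 1.91 in myogenic-like, 1.23 in cluster 9 and 0.453 in cluster 10 cells. At 2000 UMIs it was 8.61 in fibroblast/tenocyte-like, 8.66 in macrophage/monocyte-like, 8.44 in myogenic-like (8.12 at 1000 UMIs with Stmn1) and 8.33 in cluster 9 cells. A minimum of 2 UMIs gave -6.12 in endothelial-like, 6.58 in macrophage/monocyte-like, 6.32 in cluster 9 and 4.10 in cluster 10 cells. A minimum of 5 UMIs gave 2.33 in fibroblast/tenocyte-like, 2.74 in macrophage/monocyte-like, 1.62 in myogenic-like and 0.906 in cluster 10 cells. The S phase share at 500 UMIs differed by -3.16 points in endothelial-like, 2.94 in fibroblast/tenocyte-like, 1.90 in macrophage/monocyte-like and 0.890 in myogenic-like cells. At 2000 UMIs it differed by 9.67 in fibroblast/tenocyte-like, 8.71 in macrophage/monocyte-like, 6.70 in myogenic-like and -1.39 in cluster 4 cells, and with a minimum of 3 UMIs by 2.74 in fibroblast/tenocyte-like and 2.06 in macrophage/monocyte-like cells. The mitosis share at 500 UMIs differed by -1.54 in endothelial-like, 0.983 in fibroblast/tenocyte-like, 1.19 in macrophage/monocyte-like and 1.22 in myogenic-like cells. At 2000 UMIs it differed by -7.85 in endothelial-like, 5.46 in macrophage/monocyte-like and 5.69 in myogenic-like cells, and with a minimum of 3 UMIs by 2.01 in myogenic-like cells.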

Other observations

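Further genes of the cycle, outside the 41, are given here as values in the cell types whose contrast chose the genes, with no test. In endothelial-like cells Chaf1b, a histone chaperone of the replication fork, was counted at 0, 2.53 and 0 CPM in CLL, against 11.9, 22.7 and 18.4 CPM in SHAM, and Pola1, a DNA polymerase subunit, at 5.88, 5.07 and 5.11 CPM in CLL, against 22.1, 23.6 and 18.0 CPM in SHAM. Cdca3, which triggers entry into mitosis, had 5.88, 7.60 and 10.2 CPM in CLL, against 30.3, 27.6 and 29.7 CPM in SHAM. Every CLL library lay below every SHAM library for these genes. In macrophage/monocyte-like cells the antiproliferative gene Btg2 was lower in every CLL library, with 112, 142 and 110.0 CPM in CLL, against 207, 296 and 187 CPM in SHAM. In myogenic-like cells Kif4, a chromosome-condensing kinesin, had 11.0, 16.5 and 11.5 CPM in CLL, against 5.28, 2.37 and 6.21 CPM in SHAM, and Spc24 had 57.5, 54.2 and 65.6 CPM in CLL, against 36.2, 32.2 and 33.5 CPM in SHAM. Btg1, another antiproliferative gene, had 343, 242 and 295 CPM in CLL, against 591, 599 and 485 CPM in SHAM.

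Cells called cycling were deeper than the rest in 9 of 10 combinations of cell type and group, before thinning. Endothelial-like cells of CLL were the exception, with a median of 1819 UMIs in 21 cycling cells and 2216.5 UMIs in 198 others. Endothelial-like cells of SHAM had medians of 4561 UMIs in 511 cycling cells and 2549.5 UMIs in 1982 others.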
